A study of Homo sapiens with 36 samples.

Results

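The BCL2 family decides whether a cell releases cytochrome c from its mitochondria. Levels of 10 of its genes were followed in 2 human acute myeloid leukaemia lines given A9 or its vehicle: the survival genes BCL2, MCL1, BCL2L1 (BCL-XL) and BCL2A1, the pore-forming effectors BAX and BAK1, and the BH3-only genes BCL2L11 (BIM), BBC3 (PUMA), PMAIP1 (NOXA) and BID. The genes were chosen by name from the 35474 gene symbols to which the deposited transcript values could be summed, and all 10 were found, with 67 annotated transcripts. MOLM-13 and MONO-MAC-6 cells, both labelled wild type and AML, received DMSO or A9 for 72 h. A9 was given at 0.125 µM in MOLM-13 and at 0.25 µM in MONO-MAC-6, so in any comparison of the lines under A9 the line and the dose cannot be told apart. A9 is a PROTAC, a molecule that brings a protein to a ubiquitin ligase for destruction. The series' design text names its targets as IKK2 and NR4A1, while its title names IKK1 and NR4A1. Each group held 9 libraries with 2 numbers in their names. The 3 libraries with the same first number were averaged to 1 sample, which gave 3 samples per group, called replicates 1 to 3 here, and 12 in all. The sources used here do not say that these came from separate cultures, so the p-values measure only the spread between these samples, which may be technical.

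In healthy and malignant blood cells the survival members hold BAX and BAK1 in check by binding a short helix, the BH3 helix, in a groove on their surface. BH3-only proteins carry the same helix, fill that groove, and some of them also switch on BAX and BAK1 directly. Myeloid leukaemia cells commonly lean on BCL2 or MCL1 to stay alive, which is why drugs that mimic the BH3 helix are used against them. BBC3 and PMAIP1 are induced by DNA damage, PMAIP1 is also raised by the stress factor ATF4, and BCL2A1 is a target of NF-kB, the pathway that the IKK kinases switch on.

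The stretch that encodes the core of the BH3 helix is shown because the roles of the family rest on it, and because transcripts were later sorted by whether they keep it. The sequences were read from GENCODE 29 transcripts (GRCh38), 5′ to 3′ on the coding strand, from the transcript with the highest level that reads through the core. Capitals mark the codons from the leucine to the aspartate.
BCL2: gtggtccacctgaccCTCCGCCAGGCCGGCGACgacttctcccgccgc
MCL1: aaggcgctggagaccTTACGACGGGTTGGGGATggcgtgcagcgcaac
BCL2L1: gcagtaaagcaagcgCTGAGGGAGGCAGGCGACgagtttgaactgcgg
BAX: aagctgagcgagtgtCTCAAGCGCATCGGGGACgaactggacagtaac
BAK1: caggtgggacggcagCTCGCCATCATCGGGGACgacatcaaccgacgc
BCL2L11: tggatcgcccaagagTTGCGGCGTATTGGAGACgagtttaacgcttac
BBC3: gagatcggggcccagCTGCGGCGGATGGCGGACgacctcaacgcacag
PMAIP1: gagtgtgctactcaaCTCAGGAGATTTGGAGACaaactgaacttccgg
BID: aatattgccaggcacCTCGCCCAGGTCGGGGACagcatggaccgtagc
The core was searched as a leucine codon, 3 codons of any kind, a glycine or alanine codon and an aspartate codon, in frame. Both annotated reading frames of BCL2A1 lack a match to these letters, which says only that this spelling is not in them.

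Levels are given as TPM, transcripts per 1000000, a unit that allows for transcript length and adds up to a fixed sum per library, so that genes can be set beside each other. Depth behind each value is unknown because TPM hold no counts. The libraries were even in total by construction, but not in the length of what they held. The TPM-weighted mean transcript length ran from 1227 to 1444 bases over the 12 samples, and 2 samples stood apart at the short end: MOLM-13 A9 replicate 3 with 1227 bases and MONO-MAC-6 DMSO replicate 1 with 1241 bases. The other MONO-MAC-6 samples lay between 1419 and 1444 bases. The median SD between repeat libraries of a sample ran from 0.02 (MCL1) to 0.21 (BCL2A1) over the members, on the log2(TPM + 1) scale. For BCL2 it was 0.08, against 0.69 between the 3 samples of MOLM-13 DMSO and 0.99 between those of MONO-MAC-6 DMSO. For BCL2L1 it was 0.18, above the 0.10 between the samples of MOLM-13 DMSO and below the 0.50 in MONO-MAC-6 DMSO. Of 10 myeloid markers, 8 or 9 reached 1 TPM in a sample of each group, while the T cell markers CD3E and CD2, the B cell marker MS4A1 and the red cell gene HBB were listed at 0 in all 12 samples.

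Without A9, BAX was the most abundant member in both lines and MCL1 by far the most abundant survival gene. In MOLM-13 DMSO, BAX stood at 165, 167 and 180 TPM in replicates 1 to 3, BID at 79.2, 81.4 and 81.9 TPM, and MCL1 at 78.8, 71.3 and 62.4 TPM. BAK1 followed at 29.9, 30.5 and 29.2 TPM. These 4 did not overlap in level. Below them came BBC3 (14.0, 15.0 and 15.3 TPM), BCL2 (19.5, 11.2 and 6.89 TPM), PMAIP1 (11.4, 11.3 and 10.05 TPM), BCL2L11 (12.4, 9.88 and 7.48 TPM) and BCL2L1 (7.02, 7.13 and 6.19 TPM). The range of BCL2 overlapped those of all 4 others in that lower set, so their order is not fixed. BCL2A1 was at 0.55, 0.51 and 0.10 TPM, below every other member. Summed over the 4 survival genes, MCL1 held 74.4%, 79.1% and 82.6% in MOLM-13 DMSO and 85.3%, 82.0% and 79.1% in MONO-MAC-6 DMSO. These shares count all MCL1 transcripts. In MONO-MAC-6 DMSO replicate 1 its main transcript, MCL1-202, had 40.1 of the 59.3 TPM of the gene.

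**Figure D1:**
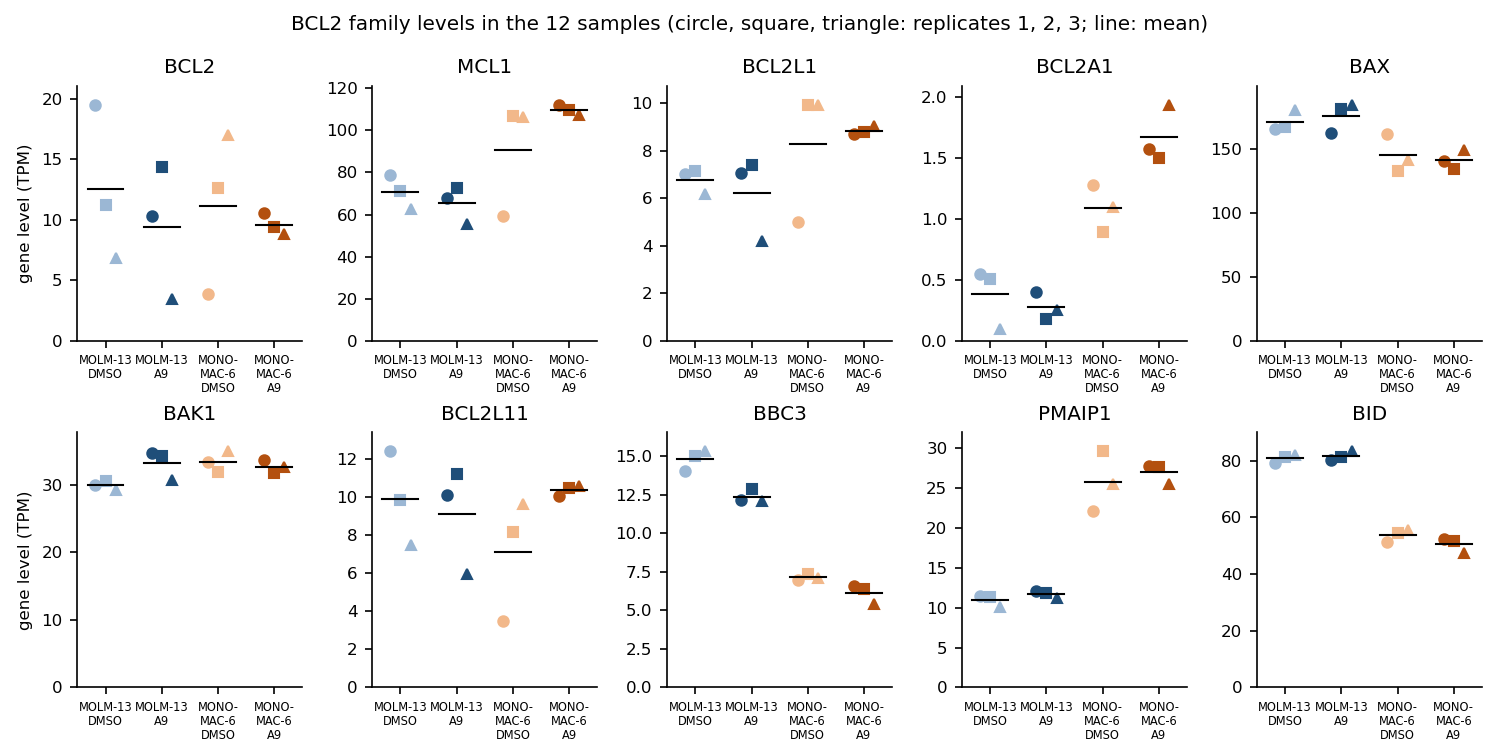
Gene level in TPM (vertical axes, each from 0) for the 10 members in the 4 groups, with 1 point per sample (circle, square and triangle for replicates 1, 2 and 3) and the group mean as a line. BBC3 and BID sit lower and PMAIP1 higher in both MONO-MAC-6 groups than in both MOLM-13 groups, while BCL2, MCL1, BCL2L1 and BCL2L11 drop in MOLM-13 A9 replicate 3 and MONO-MAC-6 DMSO replicate 1.

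Between the untreated lines 3 of the 4 BH3-only genes and 1 of the 4 survival genes were called. PMAIP1 and BCL2A1 were higher in MONO-MAC-6, and BBC3 and BID were higher in MOLM-13, while the effectors BAX and BAK1 did not pass the test. Tests were run with limma on log2(TPM + 1) over the 12923 genes whose mean reached 1 TPM in either group, and a gene was called at a Benjamini-Hochberg adjusted p under 0.05. Of the 10 members 4 were called, 2 higher and 2 lower in MONO-MAC-6. Over all genes tested 48.8% were called, 30.4% higher and 18.4% lower, so 4 of 10 is near the background and is not a result about the family. The median difference of the members was -0.04 and that of all genes 0.12.

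PMAIP1 encodes NOXA, a BH3-only protein that mainly binds MCL1 and BCL2A1. In MOLM-13 DMSO it stood at 11.4, 11.3 and 10.05 TPM and in MONO-MAC-6 DMSO at 22.2, 29.6 and 25.5 TPM. Every MONO-MAC-6 sample was above every MOLM-13 sample. The means were 10.9 ± 0.776 and 25.8 ± 3.73 TPM (SD, n = 3 each), a log2 difference of 1.16 (SE 0.14, 95% interval 0.81 to 1.50, adjusted p = 0.000828 in limma).

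BBC3 encodes PUMA, which binds all the survival members. It stood at 14.0, 15.0 and 15.3 TPM in MOLM-13 DMSO and at 6.99, 7.34 and 7.09 TPM in MONO-MAC-6 DMSO. The groups did not overlap, and both were tight. The means were 14.8 ± 0.678 and 7.14 ± 0.181 TPM (SD, n = 3 each), a log2 difference of -0.95 (SE 0.11, 95% interval -1.23 to -0.68, adjusted p = 0.000725 in limma).

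BID links death receptors to mitochondria, since caspase 8 cuts it into its active form. It stood at 79.2, 81.4 and 81.9 TPM in MOLM-13 DMSO and at 51.5, 54.6 and 55.7 TPM in MONO-MAC-6 DMSO, again without overlap. The log2 difference was -0.58 (SE 0.08, 95% interval -0.76 to -0.39, adjusted p = 0.00116 in limma). These 3 genes kept their calls and directions in all 6 fits that left out 1 sample.

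BCL2L11 encodes BIM, a BH3-only protein that binds every survival member and is held down by ERK signalling. It stood at 12.4, 9.88 and 7.48 TPM in MOLM-13 DMSO and at 3.51, 8.20 and 9.64 TPM in MONO-MAC-6 DMSO. The groups overlapped, and the low value was MONO-MAC-6 replicate 1, a sample with short transcripts. The log2 difference was -0.50 (95% interval -1.37 to 0.38, adjusted p = 0.304 in limma). With the length trend removed it was called lower (-0.51, adjusted p = 0.0329 in limma). That fit called 4014 genes higher and 3962 lower in MONO-MAC-6, of 12923 tested.

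Among the survival genes, BCL2A1 was called higher in MONO-MAC-6, at 1.28, 0.89 and 1.10 TPM against 0.55, 0.51 and 0.10 TPM in MOLM-13. The log2 difference was 0.61 (95% interval 0.21 to 1.01, adjusted p = 0.0238 in limma). These levels are the lowest of the 10 members, and the call was lost without MONO-MAC-6 DMSO replicate 3 (adjusted p = 0.0638). It was also lost with each library and an estimated correlation between repeat libraries (adjusted p = 0.232) and with the length trend removed (adjusted p = 0.121).

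MCL1, the short-lived survival protein that NOXA binds, read 78.8, 71.3 and 62.4 TPM in MOLM-13 DMSO and 59.3, 107 and 106 TPM in MONO-MAC-6 DMSO. MONO-MAC-6 replicate 1 lay below all 3 MOLM-13 samples and the other 2 lay above them. BCL2L1 showed the same split, at 7.02, 7.13 and 6.19 TPM against 5.02, 9.92 and 9.91 TPM. The log2 differences were 0.31 (95% interval -0.29 to 0.91, adjusted p = 0.344 in limma) for MCL1 and 0.20 (95% interval -0.43 to 0.84, adjusted p = 0.557 in limma) for BCL2L1. Without MONO-MAC-6 DMSO replicate 1 they were 0.59 (adjusted p = 0.00503) and 0.49 (adjusted p = 0.012), 7 of 10 members were called, and 61.6% of all genes were. With the length trend removed MCL1 was called higher (0.31, adjusted p = 0.0155 in limma) and BCL2L1 was not (-0.033, adjusted p = 0.905).

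BCL2, the target of venetoclax, read 19.5, 11.2 and 6.89 TPM in MOLM-13 DMSO and 3.90, 12.6 and 17.0 TPM in MONO-MAC-6 DMSO. The groups overlapped over most of their range. The log2 difference of -0.24 had a 95% interval from -1.62 to 1.15 (adjusted p = 0.759 in limma), which covers a change of more than 1 log2 unit in either direction.

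BAX, the effector that moves from the cytosol into the mitochondrial membrane, was 165, 167 and 180 TPM in MOLM-13 DMSO and 161, 132 and 141 TPM in MONO-MAC-6 DMSO. All 3 MONO-MAC-6 values were lower, by -0.24 on the log2 scale (95% interval -0.48 to -0.01), with an adjusted p of 0.0841 in limma. It was called without MONO-MAC-6 DMSO replicate 1 (-0.32, adjusted p = 0.00871) and with the length trend removed (-0.51, adjusted p = 0.00228). The same held with each library and an estimated correlation between repeat libraries (-0.24, adjusted p = 0.0126). BAK1, the effector that sits in that membrane from the start, was 29.9, 30.5 and 29.2 TPM against 33.3, 31.9 and 34.9 TPM, a log2 difference of 0.15 (adjusted p = 0.21 in limma). Neither effector overlapped between the lines, as was the case for 59.0% of all genes tested.

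**Figure D2:**
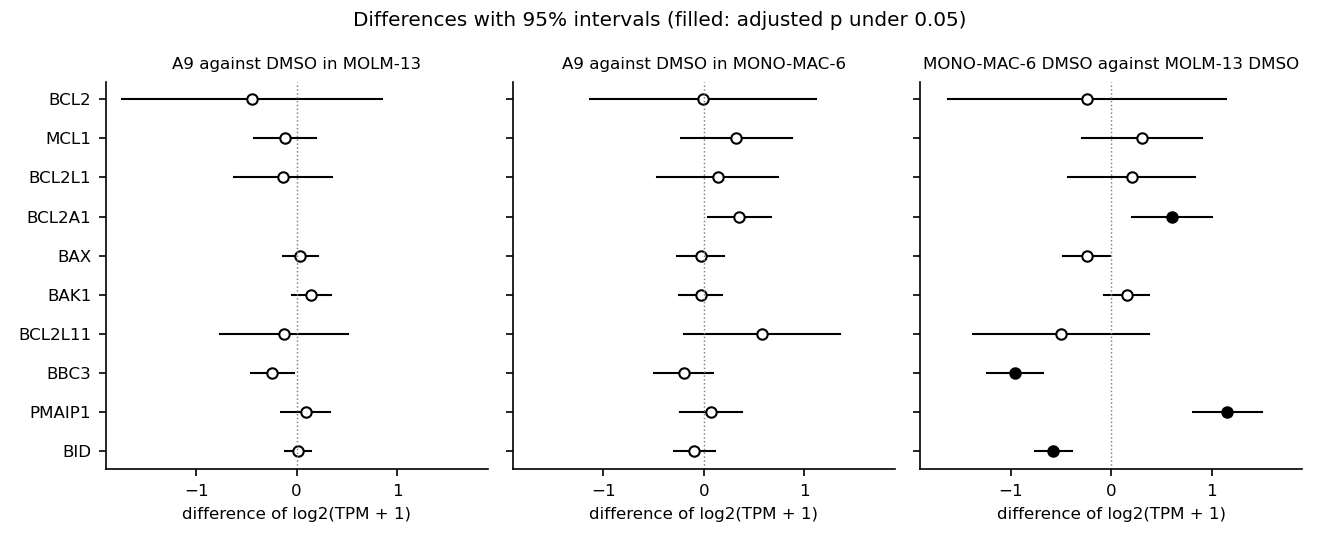
Difference of log2(TPM + 1) with its 95% interval (horizontal axis) for each member in 3 comparisons, filled where the adjusted p was under 0.05. Filled points appear only between the untreated lines (BCL2A1, BBC3, PMAIP1 and BID), and the intervals of BCL2 are the widest; BCL2A1 was below the level needed for a test in MOLM-13.

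A9 left no member past the threshold in MOLM-13. Of the 10 members 9 were tested, BCL2A1 being under 1 TPM in both groups, and 0 were called, against 0.121% of all 11597 genes tested (14 genes). At an unadjusted p under 0.05 there was 1, BBC3, against 7.90% of all genes. The median difference of the 9 was -0.12 and that of all genes -0.05. In bulk RNA, a change in the mix of cells and a change in the RNA of each cell cannot be told apart.

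With A9 in MOLM-13, BBC3 read 12.1, 12.9 and 12.1 TPM against 14.0, 15.0 and 15.3 TPM with DMSO. All A9 samples lay below all DMSO samples. The log2 difference was -0.24 (SE 0.09, 95% interval -0.46 to -0.02), with an unadjusted p of 0.0354 and an adjusted p of 0.558 in limma, so it did not pass. BAK1 was the other member without overlap, at 34.7, 34.2 and 30.6 TPM with A9 against 29.9, 30.5 and 29.2 TPM, a log2 difference of 0.15 (95% interval -0.05 to 0.34, adjusted p = 0.777 in limma). Groups did not overlap for 15.0% of all genes tested in this line, near the 2 of 9 members.

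The narrowest intervals in MOLM-13 were those of BID and BAX. BID read 80.2, 81.3 and 83.3 TPM with A9, and its log2 difference of 0.01 had a 95% interval from -0.12 to 0.15. BAX read 162, 181 and 184 TPM, a difference of 0.04 (95% interval -0.14 to 0.21). PMAIP1 read 12.1, 11.8 and 11.2 TPM, a difference of 0.09 (95% interval -0.15 to 0.33).

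The survival genes and BCL2L11 varied more between samples of the same group than between the groups. BCL2 read 10.3, 14.4 and 3.48 TPM with A9, MCL1 67.8, 72.5 and 55.7 TPM, BCL2L1 7.08, 7.38 and 4.22 TPM, and BCL2L11 10.1, 11.2 and 5.99 TPM. Replicate 3, the sample with the shortest transcripts, was the lowest for all 4. The log2 differences from DMSO ran from -0.45 for BCL2 (95% interval -1.74 to 0.85) to -0.12 for MCL1 (95% interval -0.43 to 0.19). Without that replicate BCL2 was 0.07, BCL2L1 0.08 and BCL2L11 0.12 higher with A9, and none was called. BCL2A1 read 0.40, 0.18 and 0.26 TPM and was not tested.

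In MONO-MAC-6, 0 of 10 members were called, against 3.36% of all 12870 genes tested (433 genes). At an unadjusted p under 0.05 there was 1, BCL2A1, against 20.5% of all genes. The median difference of the members was 0.03. All genes together shifted by a median of 0.16, and by 0.02 after median-ratio scaling of the samples. Groups did not overlap for 4 of 10 members, BBC3, BCL2A1, BCL2L11 and MCL1, and for 37.9% of all genes.

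BBC3 read lower with A9 in this line too, at 6.57, 6.36 and 5.38 TPM against 6.99, 7.34 and 7.09 TPM. The groups did not overlap, but the difference of -0.20 (95% interval -0.50 to 0.09) had an adjusted p of 0.378 in limma. BCL2A1, the NF-kB target, read 1.57, 1.50 and 1.94 TPM with A9 against 1.28, 0.89 and 1.10 TPM. Every A9 sample was above every DMSO sample. The log2 difference was 0.35 (SE 0.13, 95% interval 0.04 to 0.67), with an unadjusted p of 0.0321 and an adjusted p of 0.205 in limma.

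MCL1 read 112, 110 and 107 TPM with A9 against 59.3, 107 and 106 TPM with DMSO. Apart from DMSO replicate 1 the 2 groups lay within a few TPM of each other. The log2 difference of 0.32 (adjusted p = 0.434 in limma) became 0.04 without that sample. BCL2L11 read 10.1, 10.5 and 10.6 TPM against 3.51, 8.20 and 9.64 TPM, a difference of 0.58 (95% interval -0.19 to 1.35, adjusted p = 0.344 in limma) that became 0.20 without it. Neither passed in either case.

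BCL2 read 10.5, 9.43 and 8.85 TPM with A9 against 3.90, 12.6 and 17.0 TPM with DMSO. The A9 samples were close together and lay between the DMSO values. The log2 difference was -0.01 (95% interval -1.13 to 1.12, adjusted p = 0.992 in limma). Without DMSO replicate 1 BCL2 was called lower (-0.57, adjusted p = 0.0163) and BCL2A1 higher (0.42, adjusted p = 0.0478), in a fit that called 24.8% of all genes. BCL2L1 read 8.69, 8.78 and 9.04 TPM against 5.02, 9.92 and 9.91 TPM, a difference of 0.14 that turned to -0.15 without that sample.

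The effectors and the remaining BH3-only genes overlapped between the groups in MONO-MAC-6. BAX read 140, 134 and 149 TPM with A9 and BAK1 33.6, 31.6 and 32.6 TPM, differences of -0.03 each (95% intervals -0.27 to 0.20 and -0.24 to 0.18). BID read 52.4, 51.8 and 47.3 TPM, a difference of -0.09 (95% interval -0.30 to 0.11). PMAIP1 read 27.8, 27.7 and 25.5 TPM, a difference of 0.07 (95% interval -0.24 to 0.38) that turned to -0.08 with median-ratio scaling.

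The A9 effect on a member was not shown to differ between the lines. Over the 12 samples the interaction of line and treatment called 0 of 10 members, against 2.99% of all 13411 genes tested, and 1, BCL2A1, had an unadjusted p under 0.05 (0.0446), against 17.7% of all genes. Its effect could be set only loosely, at 0.46 (95% interval 0.01 to 0.90) more in MONO-MAC-6. For BBC3 the difference of effects was 0.04 (95% interval -0.25 to 0.33), and it turned to -0.15 with median-ratio scaling. For BID it was -0.11 (95% interval -0.30 to 0.08).

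Several members had their extreme levels in the 2 samples with the shortest mean transcript length. BCL2 (mean length of its transcripts 5034 bases), MCL1 (3778 bases) and BCL2L11 (3430 bases) had their lowest level of their line in MOLM-13 A9 replicate 3 and in MONO-MAC-6 DMSO replicate 1. So did BCL2L1, with a mean of 1285 bases, while BAK1 (2141 bases) did not. Most BCL2L1 TPM lay on transcripts of 781 to 1157 bases whose annotated reading frame has no stop codon. Its transcripts with a stop codon have 2383 to 2610 bases, so the mean length of BCL2L1 is uncertain. BAX (889 bases) had its highest level of its line in those same samples. In the 6 MOLM-13 samples BCL2 followed the order of the mean length exactly, from 3.48 TPM at 1227 bases to 19.5 TPM at 1414 bases, whether treated or not. These are descriptions over samples that share their treatment groups, and the part of length in the members' results was not tested beyond the fit with the length trend removed, in which no member was called for A9 in either line.

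**Figure D3:**
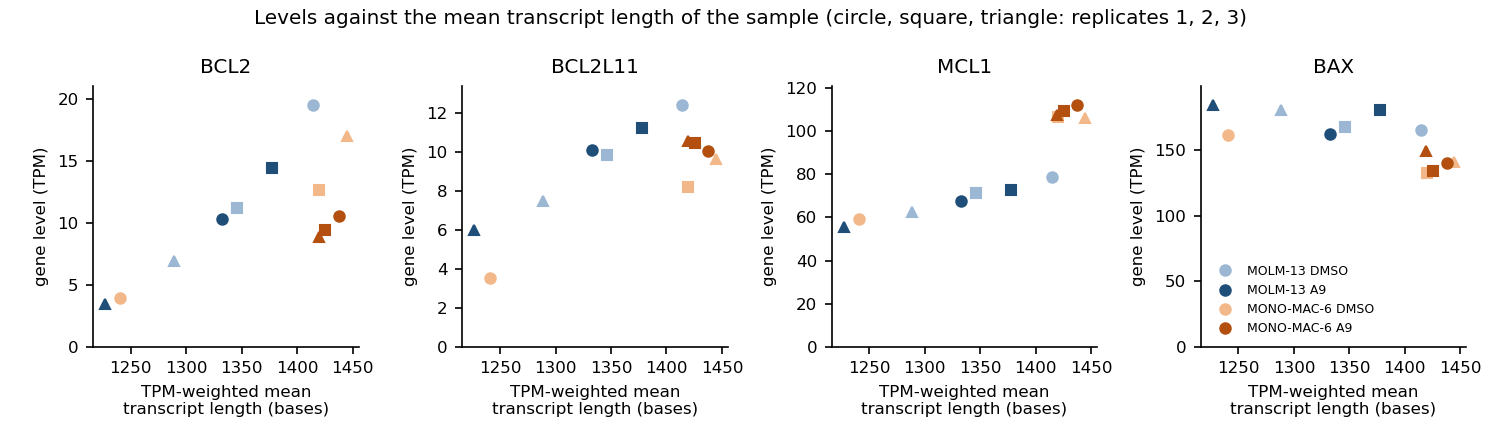
Gene level in TPM (vertical axes from 0) against the TPM-weighted mean transcript length of each sample in bases (horizontal axes) for BCL2, BCL2L11, MCL1 and BAX, with 1 point per sample. The 2 samples at 1227 and 1241 bases are MOLM-13 A9 replicate 3 and MONO-MAC-6 DMSO replicate 1. They are at or near the bottom for the first 3 genes, and each is the highest of its own line for BAX.

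One MCL1 transcript marked the same 2 samples. MCL1-204 skips 459 bases of the first exon (GRCh38 chr1:150578964-150579422, minus strand) that MCL1-202, the main transcript of the gene, keeps. The stretch is 70.2% GC against 45.1% for MCL1-202 as a whole, its length is a multiple of 3, and MCL1-204 keeps the BH3 core. The join in each transcript is shown with capitals after the junction.
MCL1-202: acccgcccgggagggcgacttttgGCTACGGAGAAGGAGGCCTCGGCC
MCL1-204: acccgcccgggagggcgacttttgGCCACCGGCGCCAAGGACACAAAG
MCL1-204 held 26.1% of MCL1 in MOLM-13 A9 replicate 3 and 30.2% in MONO-MAC-6 DMSO replicate 1. In the other 10 samples its share ran from 0.26% to 3.32%. No group was high throughout, and the transcript's ratio to the rest of the gene did not pass in MOLM-13 (difference 1.15, 95% interval -1.23 to 3.54, adjusted p = 0.901 in limma) or MONO-MAC-6 (-1.81, 95% interval -4.81 to 1.20, adjusted p = 0.513 in limma).

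Isoform use was compared through the log2 ratio of a transcript to the rest of its gene, each with 1 TPM added, and 33 of the 67 member transcripts reached a mean of 1 TPM in a group. With A9, 0 of 29 tested member transcripts were called in MOLM-13 and 0 of 28 in MONO-MAC-6. Over all transcripts 0% and 0.00508% were called. At an unadjusted p under 0.05 there were 0 and 5, against 3.87% and 11.9% of all transcripts. Between the untreated lines 4 of 32 were called, against 13.9% of all transcripts, so the share is near the background and the 4 are given as single transcripts.

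BAX-203 had the largest difference. It skips an exon of 147 bases (GRCh38 chr19:48955687-48955833, plus strand), a multiple of 3, which holds the BH3 core of BAX shown above. The joins of BAX-202, the main transcript, and BAX-203 are given with capitals after the junction.
BAX-202: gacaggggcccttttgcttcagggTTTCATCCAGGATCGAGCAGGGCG
BAX-203: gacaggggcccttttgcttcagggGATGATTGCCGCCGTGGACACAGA
BAX-203 stood at 10.9, 9.0 and 13.2 TPM in MOLM-13 DMSO and at 1.55, 1.54 and 0.65 TPM in MONO-MAC-6 DMSO. That is 6.57%, 5.38% and 7.31% of BAX against 0.96%, 1.17% and 0.46%, without overlap. The ratio differed by -2.27 (SE 0.24, 95% interval -2.85 to -1.70, adjusted p = 0.00254 in limma). With A9 it was 4.12%, 6.29% and 4.67% in MOLM-13 and 0.61%, 0.76% and 0.69% in MONO-MAC-6, and neither line's change passed. Transcripts with an annotated reading frame that lacks the core together held 12.1% ± 1.85 of all BAX TPM in MOLM-13 DMSO. In MONO-MAC-6 DMSO they held 4.17% ± 0.487 (SD, n = 3 each). These sums include BAX-209, whose frame has no stop codon (means 2.81% and 1.56%). They also include BAX-212, annotated for nonsense-mediated decay (1.60% and 1.51%).

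BID-203 encodes 99 residues and lacks the core that the 195 residues of BID-209 and BID-215 hold. It made up 4.53%, 4.18% and 4.05% of BID in MOLM-13 DMSO and 0.85%, 0.74% and 0.51% in MONO-MAC-6 DMSO, without overlap. The ratio differed by -1.17 (SE 0.16, 95% interval -1.55 to -0.78, adjusted p = 0.00656 in limma). BID-204, with the same 99 residues, was far more abundant, at 32.6%, 29.2% and 31.2% against 32.9%, 27.4% and 19.1%, and its ratio did not pass (adjusted p = 0.521). BAX-203 and BID-203 kept their calls in all 6 fits that left out 1 sample.

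BBC3-205, a transcript with a retained intron, made up 16.3%, 17.9% and 17.3% of BBC3 in MOLM-13 DMSO and 30.6%, 38.8% and 34.9% in MONO-MAC-6 DMSO. The groups did not overlap, and the ratio differed by 1.20 (SE 0.18, adjusted p = 0.00809 in limma). Without MOLM-13 DMSO replicate 2 its adjusted p was 0.0509. In TPM, BBC3-205 itself was alike in the 2 lines, with means of 2.54 in MOLM-13 DMSO and 2.49 in MONO-MAC-6 DMSO. The means of BBC3-203, the main transcript, were 10.2 and 4.27 TPM, so the higher share of BBC3-205 went with the lower gene sum. Transcripts with the core held 74.7% ± 2.91 of BBC3 in MOLM-13 DMSO and 62.0% ± 4.35 in MONO-MAC-6 DMSO (SD, n = 3 each). With A9 in MONO-MAC-6 the share of BBC3-205 was 47.2%, 47.4% and 44.9%, above all DMSO samples. That change had an unadjusted p of 0.0143 and an adjusted p of 0.394 in limma.

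BCL2L11-206, the main transcript of that gene with 5086 bases, held 68.4%, 69.9% and 71.4% of BCL2L11 in MOLM-13 DMSO and 57.5%, 55.2% and 53.3% in MONO-MAC-6 DMSO. The ratio differed by -0.76 (SE 0.15, adjusted p = 0.0224 in limma), and 5 of the 6 fits that left out 1 sample lost the call (all but the fit without MONO-MAC-6 DMSO replicate 1). MCL1-203, a transcript without a reading frame, held 1.53%, 4.09% and 3.34% of MCL1 with DMSO and 5.99%, 6.40% and 5.85% with A9 in MONO-MAC-6, with an unadjusted p of 0.00706 and an adjusted p of 0.383 in limma.

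**Figure D4:**
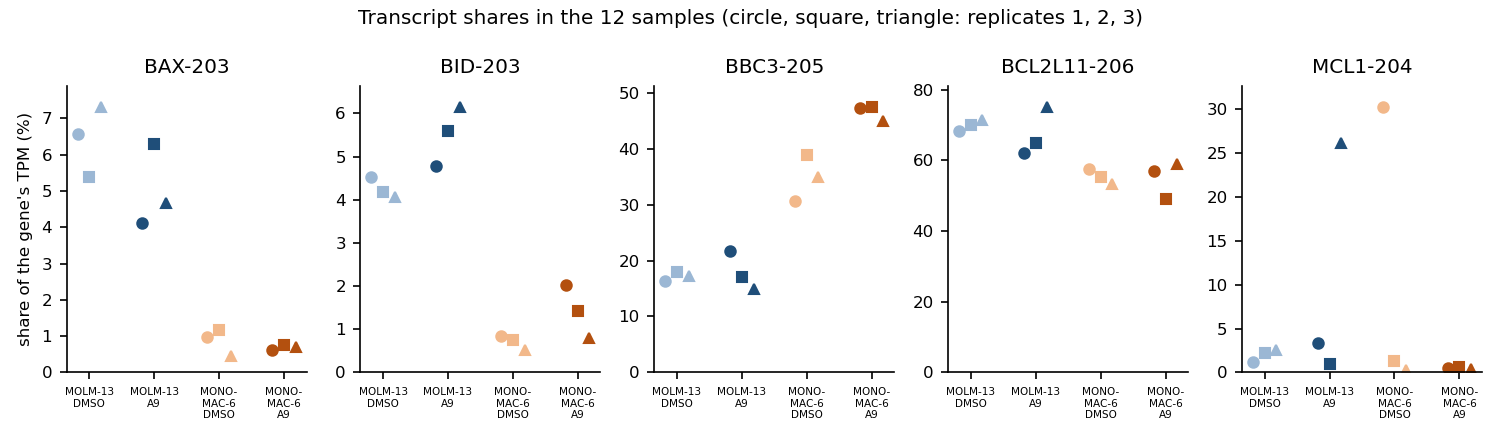
Share of the gene's TPM in percent (vertical axes from 0) held by 5 transcripts in the 4 groups, with 1 point per sample. BAX-203 and BID-203 are lower and BBC3-205 higher in both MONO-MAC-6 groups than in both MOLM-13 groups, and MCL1-204 is high only in MOLM-13 A9 replicate 3 and MONO-MAC-6 DMSO replicate 1.

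The other genes of the pathway gave few calls for A9 and many between the lines. Of 13 further family genes 8 passed the filter for MOLM-13 and 9 for MONO-MAC-6, and limma called 0 for A9 in either. Over all genes tested 0.121% and 3.36% were called. The apoptosome and caspase genes (15 tested in each line), the inhibitors of caspases (5 in each), the VDAC channels (3 in each), the ubiquitin enzymes that set MCL1 turnover (5 in each), the death receptor genes (9 and 8) and the transcription factors of the members (11 and 10) gave 0 calls for A9 as well. At an unadjusted p under 0.05, the MOLM-13 fit held 1 apoptosome gene and 1 death receptor gene of these lists. The MONO-MAC-6 fit held 3 family genes, 1 apoptosome gene, 2 inhibitors, 3 death receptor genes and 2 transcription factors. Of the genes induced by DNA damage MOLM-13 had 0 of 12 called and MONO-MAC-6 had 1 of 14, the growth-arrest gene BTG2, which rose from 0.74 to 1.54 TPM with DMSO to between 4.84 and 6.19 TPM with A9 (difference 1.59, SE 0.18, adjusted p = 0.00912 in limma, lost in 3 of 13 alternatives). At an unadjusted p under 0.05 there were 3 of 12 in MOLM-13, CDKN1A (-0.38), SESN1 (-0.39) and FDXR (-0.29), and 5 of 14 in MONO-MAC-6, beside 7.90% and 20.5% of all genes. SESN1 and FDXR are named after their values were seen. The named targets of A9 were not called at the RNA level: CHUK -0.05 and 0.25, IKBKB -0.26 and 0.53, NR4A1 -0.07 and 0.28, with MOLM-13 given first. A degrader acts on protein, which was not measured.

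BMF, a BH3-only gene outside the 10 members, was called for a difference of the A9 effect between the lines. It read from 2.79 to 4.86 TPM with A9 against 4.85 to 6.67 TPM with DMSO in MOLM-13, and from 11.5 to 16.0 TPM against 3.98 to 7.42 TPM in MONO-MAC-6. The difference of the effects was 1.53 (SE 0.32, adjusted p = 0.0309 in limma), a call lost in 7 of 19 alternatives. Neither line's own effect passed in limma (-0.47, adjusted p = 0.632, and 1.06, adjusted p = 0.0753). HTRA2, a mitochondrial protease that blocks inhibitors of caspases once released, differed the other way by -0.58 (SE 0.10, adjusted p = 0.0149 in limma). That call was lost in 6 of 19 alternatives.

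Of 9 tested myeloid markers, 1 was called higher with A9 in the MOLM-13 fit, 4 were in the MONO-MAC-6 fit, and 0 were called lower. Over all genes tested 0.121% and 3.36% were called in these fits. LYZ, the lysozyme gene, rose with A9 in both lines, by 1.29 in MOLM-13 (adjusted p = 0.00518, lost in 2 alternatives) and 1.17 in the other (adjusted p = 0.00274), and in MONO-MAC-6 CD14 (1.77), CD68 (1.72, lost in 2 alternatives) and SPI1 (0.38, lost in 8 alternatives) were called higher too, all by limma. The sum of the 10 markers was 777 to 812 TPM with DMSO and 1010 to 1127 TPM with A9 in MOLM-13. It was 3860 to 4380 TPM and 8605 to 8907 TPM in MONO-MAC-6. LYZ made up most of that change: its mean went from 133 to 327 TPM in MOLM-13 and from 3413 to 7681 TPM in MONO-MAC-6. The part of these markers in the members' values was not tested.

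Between the untreated lines BIK, a BH3-only protein of the endoplasmic reticulum, had the largest difference in the family. It read 83.4 to 92.3 TPM in MOLM-13 DMSO and 10.6 to 13.0 TPM in MONO-MAC-6 DMSO, a log2 difference of -2.84 (SE 0.11, adjusted p = 9.08e-06 in limma). Of the 9 other family genes tested 5 were called, a share near the 48.8% of all genes. BIK was the 1 called lower in MONO-MAC-6, and the other 4 were higher there: BAD (0.76), which yields to survival signals by phosphorylation, BOK (0.85), a relative of BAX, BNIP3 (0.78), a hypoxia-induced mitophagy receptor, and BCL2L12 (0.31). BOK lost its call in 4 of 11 alternatives, among them each library with an estimated correlation (adjusted p = 0.457), and BAD lost it with median-ratio scaling (adjusted p = 0.0588). BCL2L12 lost its call in 8 of 12 alternatives and read -0.05 with protein-coding transcripts alone.

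Most tested genes of the list induced by DNA damage were lower in MONO-MAC-6, as was BBC3. PMAIP1, a member also induced by DNA damage, went the other way and was higher there (1.16). Of 13 tested, 9 were called lower and 1 higher, beside 18.4% and 30.4% of all genes, with a median of -0.92. CDKN1A, the p21 inhibitor of the cell cycle, had the largest difference, from 108 ± 5.26 TPM in MOLM-13 DMSO to 6.64 ± 0.841 TPM in MONO-MAC-6 DMSO (SD, n = 3 each; -3.84, adjusted p = 3.66e-06 in limma). PHLDA3, an inhibitor of AKT, followed with -2.36 and TNFRSF10B, the TRAIL receptor DR5, with -1.79. MDM2, a ubiquitin ligase, was lower by -1.69. Of the transcription factors of the members, FOXO1, which drives BCL2L11, was lower by -0.94, while BCL2L11 itself was not called (adjusted p = 0.304 in limma). ATF4, which drives PMAIP1, was higher by 0.59, a call that 5 alternatives lost. The part of these factors in the members' levels was not tested.

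Downstream of the mitochondria 6 of 15 apoptosome and caspase genes were called lower and 2 higher in MONO-MAC-6. Over all genes tested 18.4% were called lower and 30.4% higher, which is the background for each list here. APAF1, the scaffold that cytochrome c assembles, was lower by -1.42 (adjusted p = 0.000384) and AIFM1, a mitochondrial flavoprotein, by -0.72 (adjusted p = 0.0117), both by limma. The channels VDAC2, which holds BAK1 at the mitochondrion, and VDAC3 were lower by -0.46 and -0.43. Upstream, 4 of 9 death receptor genes were called lower and 2 higher, with TNF (-2.20), TNFRSF10B and FAS (-1.12) the largest. TNF (adjusted p = 0.490) and FAS (adjusted p = 0.0751) lost their calls with each library and an estimated correlation. BIRC5 (survivin) was the 1 inhibitor of caspases of 5 tested that was called (0.45). BIRC5 lost its call in limma with median-ratio scaling (adjusted p = 0.0645) and with the length trend removed (adjusted p = 0.0625). Of 5 enzymes of MCL1 turnover 0 were called.

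**Figure D5:**
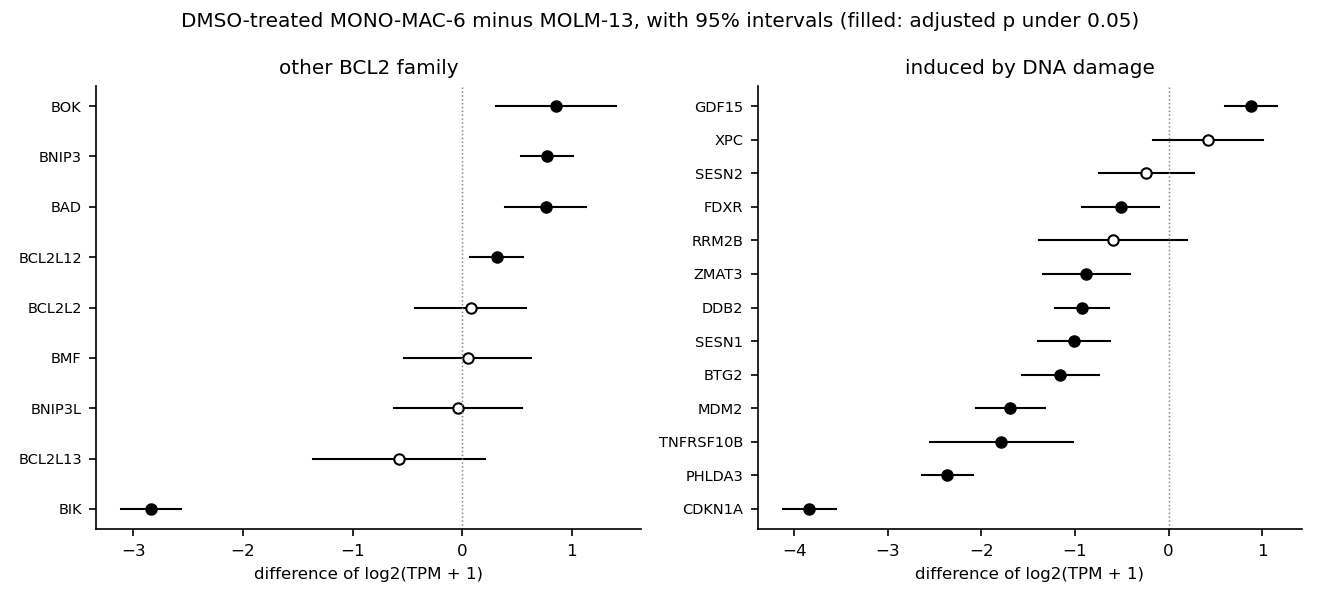
Difference of log2(TPM + 1) between DMSO-treated MONO-MAC-6 and MOLM-13 with its 95% interval (horizontal axes) for the tested genes of 2 lists, filled where the adjusted p was under 0.05. BIK stands apart at -2.84 in the family, and 9 of 13 genes induced by DNA damage are filled below 0.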

How the data were processed

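Poly(A) RNA of 36 libraries was sequenced as paired reads of 150 bases, with RIN of at least 8 and a stated depth of 25 M reads per sample, per the labels' protocols. The deposited values are TPM per Ensembl transcript and library; kallisto, limma and GRCh38 are named without versions or roles per the submitters' processing notes. How strand was treated is not given in the sources used here.

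Of 207175 transcripts, 162561 (78.5%) matched GENCODE 29 (GRCh38) and held 89.9% to 91.4% of each library's TPM. Their TPM were summed by symbol. The 44614 others were not used, so sums may be too low. The 3 libraries with the same first number were averaged, and limma 3.58.1 in R 4.3.3 (eBayes with trend and robust) was run on log2(TPM + 1) as described, after tests on simulated data. Other steps ran in pandas 2.3.3 and matplotlib 3.10.9 under Python 3.11.15.

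The members and lists were chosen with earlier results of these data known. All members are named; of another list, all called genes where there were 5 or fewer, otherwise the 3 with the largest difference, and any of BCL2L2, BIK, BMF, BAD, CDKN1A, MDM2, CHUK, IKBKB and NR4A1. A few results under this rule are not reported here. Of other cell markers, CD79B, HBA1 and PECAM1 were called higher in MONO-MAC-6 DMSO (2.10, 2.92 and 2.13), as were LYZ (4.67) and CD14 (1.67). ITGAM was called lower there (-0.94), a call lost in 2 of 12 alternatives. Alternatives were a pseudocount of 0.1 TPM, no filter, median-ratio scaling, protein-coding transcripts, each library with an estimated correlation, a replicate block, an isoform minimum of 5 TPM, leaving out each sample, and, chosen after seeing the data, a lowess correction (span 0.3) of each sample for transcript length.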

Additional observations from a re-analysis of the deposited data

Results flagged for a closer look

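For 6 genes of the lists beside the members, the A9 effect differed between the lines by the interaction test in limma (adjusted p under 0.05 over all genes tested); line and dose cannot be told apart. In MONO-MAC-6 less MOLM-13 the differences were 1.53 for BMF, -0.58 for HTRA2, 1.35 for BTG2, 1.73 for CD14, 1.49 for CD68 and -0.79 for CD79B. CD79B and CD14 were under 1 TPM in every MOLM-13 sample. BMF lost its call in 7 of the alternatives, HTRA2 in 6 and CD79B in 14.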

How the results depend on the processing

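No alternative that kept all samples called a member for A9 in either line or in the interaction. The 44614 unmatched transcripts, the unknown depth and 3 samples per group limit every value. Over all genes, calls in MOLM-13 (14) were 4 with no filter, 48 with median-ratio scaling, 234 with each library and an estimated correlation, and 177 with the length trend removed. In MONO-MAC-6 (433) they were 254 with no filter, 1599 with each library and 1194 with the length trend removed. In the interaction (401) they were 1244 and 742 with the last 2 settings. Among calls, the share higher in MONO-MAC-6 with A9 was 74.6%, and 62.7% with scaling and 53.2% without the length trend; the same shares were 64.3%, 56.5% and 45.4% for the interaction and 62.2%, 55.7% and 50.3% between the untreated lines. Scaling moved the median of all genes from 0.16 to 0.02 in MONO-MAC-6 and from 0.20 to 0.02 in the interaction.

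Whether replicate numbers pair the samples was not settled. Same-number correlations of the deviations from the group means were 0.361, -0.077 and 0.676 in MOLM-13, and -0.027, 0.088 and -0.091 in MONO-MAC-6. The deviations of 3 samples in a group depend on each other, so these correlations cannot exclude pairing. With the replicate block, 87, 94 and 207 genes were called in MOLM-13, MONO-MAC-6 and the interaction, 0 of them members, and 0 isoform ratios in MONO-MAC-6. In neither line did every sample correlate best with its own number, though MOLM-13 A9 replicates 1 and 3 did.

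Isoform calls in MONO-MAC-6 (2) were 0 with a pseudocount of 0.1 and with a minimum of 5 TPM. Between the lines (5293) they were 2797 and 1933 with those settings, and member transcripts (4) were 1 with the minimum of 5 TPM. BID-203 and BBC3-205 were under that minimum in both DMSO groups, as was the rest of BCL2L11 beside BCL2L11-206. The filter therefore removed them, and they were not tested again.

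Some directions turned, for uncalled members and for BCL2L12, a called family gene outside the 10, and the cause was not tested. BAX in MOLM-13 was -0.016 with the length trend removed. In MONO-MAC-6, BCL2 was 0.019 with the pseudocount of 0.1, BCL2L1 -0.0023 with scaling, and PMAIP1 -0.082 with scaling and -0.046 with the length trend removed. BBC3 in the interaction was -0.15 with scaling, -0.15 with protein-coding transcripts and -0.072 with the length trend removed. Between the lines, BCL2L1 was -0.033 with the length trend removed and BCL2L12 -0.053 with protein-coding transcripts.

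Leaving out 1 sample at a time gave 2 to 8 calls in MOLM-13, 58 to 3188 in MONO-MAC-6, 198 to 543 in the interaction and 4646 to 7960 between the lines. Member calls ranged from 0 to 2 in MONO-MAC-6 and from 3 to 7 between the lines, isoform calls from 0 to 1 in MONO-MAC-6 and from 1730 to 6615 between the lines, and member transcripts there from 2 to 7. In MOLM-13 BCL2 ran from -0.82 to 0.074, BCL2L1 from -0.26 to 0.083, BCL2L11 from -0.30 to 0.12 and BID from -0.0015 to 0.026. In MONO-MAC-6 BCL2 ran from -0.57 to 0.37, BCL2L1 from -0.15 to 0.28, BAX from -0.096 to 0.047, BAK1 from -0.062 to 0.0017 and PMAIP1 from -0.026 to 0.18. In the interaction BCL2 ran from -0.12 to 0.82, BCL2L1 from -0.014 to 0.42, BAX from -0.13 to 0.0096, BBC3 from -0.0079 to 0.11 and PMAIP1 from -0.12 to 0.084. Between the lines BCL2 ran from -0.62 to 0.32.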
